A study of Mus musculus with 18 samples.

Results

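RNA from the testis and the liver of unstressed mice was compared, using 6 of the 18 libraries of a study of chronic restraint stress. The 3 control testis libraries and the 3 control liver libraries were chosen by their tissue and treatment labels, and no library of a stressed animal entered any value below. The 2 groups differ in tissue alone as far as the labels go, and both are described as control. The labels give no strain, age or genotype, and do not state that a testis and a liver library of the same code came from 1 animal. A stranded kit for total RNA was used, so RNA without a poly(A) tail could also be read. The design text calls the 3 samples of each group biological replicates.

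The testis produces sperm in seminiferous tubules. Stem cells called spermatogonia divide, enter meiosis as spermatocytes and mature as haploid spermatids, whose nuclei are packed with protamines in place of histones while a tail and an acrosome are built. Sertoli cells nurse the germ cells inside the tubule, peritubular muscle-like cells surround it, and Leydig cells between the tubules make testosterone. Most of the liver's mass is hepatocytes, which secrete the proteins of blood plasma and handle ammonia, glucose, fat, bile acids and foreign compounds, with Kupffer cells (resident macrophages), sinusoidal endothelium, stellate cells and bile duct cells among them.

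Total counts were 27.85 to 31.38 megacounts per testis library and 31.87 to 35.1 megacounts per liver library. Replicates differed by more than counting error (chi-square per degree of freedom 4.64 to 18.13 between testis libraries and 67.48 to 114.72 between liver libraries), and the median coefficient of variation of genes at a mean TPM (a level per gene length that sums to the same total in every library) of 10 or more was 7.42% in testis and 13.2% in liver. Levels below are TPM in replicates 1, 2 and 3. Differences are log2 fold changes, testis minus liver, from edgeR's quasi-likelihood test on counts with TMM scaling, given with their standard error (SE), and a gene was called where the Benjamini-Hochberg adjusted p was under 0.05. TMM scaling sets the middle of the shared genes level, while TPM sets the total level. The median gene moved by 0.95 on the log2 scale from TMM to log2(TPM + 1), whose added 1 shrinks changes of low genes. Genes with equal TPM in both tissues therefore have fitted values below 0, such as -1.10 for Ppia at means of 264 and 258 TPM. Where a named gene's direction depends on the scaling, this is said beside it.

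Testis libraries held transcripts of many more genes than liver libraries. At least 1 TPM was listed for 17865, 18022 and 18200 genes in testis and for 11583, 11696 and 11841 in liver, a difference of 6322 genes with no overlap between tissues (exact permutation test, two-sided, p = 0.1, the smallest that 3 against 3 allows). Protein-coding genes accounted for 13935 ± 90.1 (SD, n = 3) of them in testis and 10214 ± 81.0 in liver. The gap was proportionally wider for long intergenic RNAs, of which 794.33 ± 10.8 reached 1 TPM in testis and 124 ± 6.24 in liver, and for genes annotated as antisense, with 773.33 ± 12.6 and 188.67 ± 11.7. Reads of an antisense gene and of its partner cannot be told apart unless counting used strand, and no strand setting is named in the labels. Annotated pseudogenes at 1 TPM numbered 1310.7 ± 6.03 in testis and 598.67 ± 19.7 in liver, and reads of near-identical parent genes could be split into them.

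Liver RNA was concentrated in few genes and testis RNA was spread over many. The 10 most abundant genes held 25.67, 26.72 and 25.67% of TPM in liver and 10.35, 14.12 and 12.86% in testis. It took 63, 58 and 62 genes to make up 50% of liver TPM, and 591, 568 and 593 genes to make up the same share in testis. Both measures separated the tissues without overlap (exact permutation p = 0.1 each, two-sided). The testis share was raised by 1 short gene annotated as a miRNA, Gm23935, which was listed at 27260, 75830 and 60850 TPM in testis and at 35.0, 182 and 49.2 in liver. Leaving out small RNA genes, an alternative chosen after seeing the data, put the top 10 at 7.74% in testis and 26.3% in liver.

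**Figure D1:**
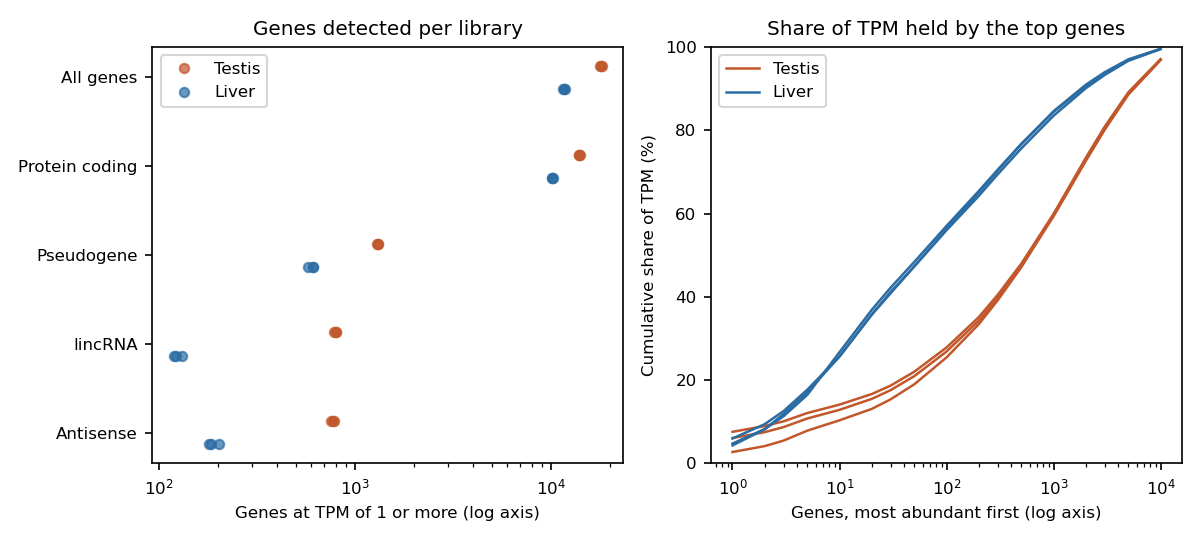
Left, number of genes at TPM of 1 or more in each of the 3 testis and 3 liver libraries (log axis), for all genes and for 4 gene classes. Right, cumulative share of TPM (%) against the number of genes counted from the most abundant (log axis), 1 line per library. Testis points lie to the right of liver points in every class, and 50% of TPM is reached near 60 genes in liver and near 590 in testis.

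Among 20079 genes tested, 10844 (54.0%) were called higher in testis and 6927 (34.5%) lower, so 88.5% of all genes were called in some direction. A change of at least 4-fold was called for 8186 genes (40.8%) upwards and 3989 (19.9%) downwards. Overlap of single genes was judged on counts scaled with TMM. Some genes counted as liver above overlap on TPM, such as Rnf8, or have higher TPM in every testis library, such as Prdm9. On the TMM scale the 3 libraries of 1 tissue did not overlap those of the other for 89.7% of genes. Testis was above for 54.9% and liver for 34.7%. These shares are the background for every count below. They moved with the scaling: calls were 61.0% upwards with TMM and 70.1% with library size alone, which gave 12483 genes higher and 5327 lower. A limma fit on log2(TPM + 1), which changed the test and the filter (18349 genes) along with the scaling, gave 73.8%, with 12224 higher and 4343 lower. Of 881 long intergenic RNA genes tested, 709 (80.5%) were higher in testis and 94 lower, and their median log2 fold change was 7.38, beside 8286 higher and 6151 lower of 16300 coding genes, with a median of 0.55.

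The 8 lists of germ cell genes held 174 genes, of which 171 could be tested, 164 were higher in testis, 6 were lower and 1 was not called. Their summed TPM was 10.5, 9.71 and 9.9% of the total in testis and 0.0215, 0.0225 and 0.0222% in liver. In whole tissue, more cells of a type and more RNA per cell cannot be told apart. Many of the folds rest on a handful of liver counts: 124 of the germ cell genes had under 30 counts over the 3 liver libraries, with 51 of them at 0, and together these 124 gave 245, 137 and 157 counts in liver replicates 1, 2 and 3 against 1268869 to 1435326 in testis. A gene at 0 in all libraries of a tissue is given a lower bound, set against 3 counts over the group. With such genes put at their bound, list medians were 4.80 for spermatogonia, 7.92 for meiosis, 9.98 for the piRNA pathway, 9.61 for transcription and RNA control, 10.92 for spermatid chromatin, 10.97 for the acrosome, 11.76 for the flagellum and 10.71 for ion channels, below the fitted medians that follow. The same change gave 5.07 for Sertoli cells, 7.36 for Leydig cells and -13.41 for plasma proteins.

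Spermatogonial genes were the most mixed of the germ cell lists, with 12 of 16 tested members higher in testis, 4 lower and a median of 6.45, beside 0.93 for all genes tested. Dmrtb1, a DM-domain transcription factor of spermatogonia, stood far above the rest at 804, 810.5 and 822 TPM in testis and 0.0517, 0 and 0 in liver. Which cells of the testis held this RNA cannot be told from whole tissue. Dmrt1, a relative of Dmrtb1 in spermatogonia and Sertoli cells, was at 21.5, 19.6 and 20.4 TPM in testis. It had no count in liver and was at least 421-fold higher. The 4 members lower in testis were Gfra1, Foxo1, Upp1 and Zbtb16, genes used to mark stem cell spermatogonia that other tissues also express. Gfra1, the GDNF co-receptor, was at 2.94, 2.80 and 3.17 TPM in testis and 22.2, 36.0 and 27.9 in liver, a log2 fold change of -4.40 ± 0.20 (adjusted p = 2.59e-08). The direction of Zbtb16 (1.37, 1.18 and 1.43 TPM against 0.771, 1.35 and 1.40) depended on the scaling, at -0.94 with TMM and 0.11 on log2(TPM + 1). Nanos2 and Nanos3, markers of rare stem cells, had at most 17 counts in a testis library and were filtered out.

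Meiotic prophase genes were higher in testis for 28 of 30 members, with 1 lower and 1 not called and a median of 9.41. Syce1, a protein of the synaptonemal complex that zips paired chromosomes together, was at 767, 610.2 and 626 TPM in testis and at 0 in every liver library, at least 7701-fold higher. Hspa2, the testis chaperone needed to finish meiosis, was at 1153, 1220 and 1247 TPM against 4.19, 2.59 and 2.72, a log2 fold change of 7.42 ± 0.27. The cohesin subunits Stag3 and Smc1b, which hold meiotic chromosomes together, averaged 233 and 227 TPM in testis and under 0.1 TPM in liver. Prdm9, the histone methyltransferase that places recombination hotspots, was the member called lower in testis, although its TPM was above that of liver in every library (4.46, 3.69 and 3.85 against 3.46, 2.52 and 2.37). Its log2 fold change was -0.63 with TMM and 0.41 on log2(TPM + 1), and its call was lost without testis replicate 2 (adjusted p = 0.113), testis replicate 3 (0.107) or liver replicate 1 (0.0861).

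All 18 tested genes of the piRNA pathway, which silences transposons in germ cells through small RNAs bound to PIWI proteins, were higher in testis, with a median of 12.18. Piwil1, the PIWI protein of pachytene spermatocytes and round spermatids, was at 266, 286 and 262 TPM in testis with no count in liver. Mael, a component of the germ cell granule called nuage, was the most abundant at 1856, 1695 and 1702 TPM. Ddx4, the VASA helicase that marks germ cells, was at 614, 579 and 586 TPM and had a single count in liver. Piwil4, used in the fetal testis, had at most 19 counts in a library and could not be tested.

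Of genes that control transcription and stored RNA in germ cells, 20 of 20 were higher in testis, with a median of 10.36. Ybx2 and Ybx3, proteins that bind and store messenger RNA until spermatids elongate, were at 2607, 2336 and 2241 TPM and at 2326, 2092 and 2085 TPM in testis. Ybx2 was at most 0.264 TPM in a liver library, while Ybx3 was at 25.1, 20.2 and 22.9 there. Meig1, Papolb (a cytoplasmic poly(A) polymerase) and Ddx25 (an RNA helicase that exports messages in spermatids) each exceeded 580 TPM in every testis library.

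Spermatid chromatin genes held the 3 highest mean TPM among coding genes of the testis. Tnp2, a transition protein that displaces histones, was at 14270, 13890 and 14120 TPM, Prm2 at 13210, 11290 and 12220 and Prm1 at 11780, 11310 and 11230. In liver these genes were listed at no more than 2.07 TPM in any library. Prm1 had 18 liver counts, all in replicate 1, and its log2 fold change was 12.76 ± 0.69 with that library and 18.73 without it. Tnp2 moved from 13.29 to 15.77 and Prm2 from 14.93 to 16.27 in the same way. Of the 14 list members 13 were higher in testis, and Rnf8, a ubiquitin ligase of the DNA damage response in all tissues, was lower with TMM (-1.20 ± 0.25, adjusted p = 0.00135). Its TPM overlapped between the tissues, at 1.755, 1.89 and 2.21 against 2.37, 1.52 and 2.23, and its value on log2(TPM + 1) was -0.03. The stretch before the Prm1 start is shown because the cAMP-responsive activator CREM drives this gene in spermatids. It covers 250 bases at chr16:10796824-10797073 (minus strand, RefSeq, GRCm38.p6), with the only match to TGACNTCA on either strand, a response element with its centre left free, in capitals.
Prm1: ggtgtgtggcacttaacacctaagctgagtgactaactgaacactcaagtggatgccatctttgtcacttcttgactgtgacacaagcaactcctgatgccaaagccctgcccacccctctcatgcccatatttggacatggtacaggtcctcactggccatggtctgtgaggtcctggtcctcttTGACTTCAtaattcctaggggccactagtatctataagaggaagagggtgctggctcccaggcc
The match, TGACTTCA, begins 64 bases before the start. TGACNTCA, which includes the palindrome TGACGTCA, was found in 7.49% of 32851 RefSeq windows of the same length, so the letters alone mark no site. Crem itself was higher in testis, at a mean of 104 TPM against 13.6.

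Genes of the acrosome, the vesicle that lets sperm reach the egg, were higher in testis for 20 of 20 members (median 11.27). Acr, its protease acrosin, was at 401, 357 and 368 TPM in testis and 0.0716, 0 and 0 in liver. Adam3, needed for binding to the egg coat, was at 1274, 1116 and 1152 TPM, and Spata16, needed for the acrosome to form, at 479, 404 and 394 TPM with no liver count. The flagellum list was higher in all 33 members, with the highest median of the lists at 12.80. Smcp, a cysteine-rich protein of sperm mitochondria, was at 7527, 5859 and 5905 TPM. Odf1, of the outer dense fibres, was at 2660, 2990 and 3103 TPM and Akap4, the scaffold of the fibrous sheath, at 2557, 2155 and 2190 TPM, both with no count in liver. Akap4 had the largest fitted change of any gene taken by the naming rule in this direction and was at least 54940-fold higher. Oaz3, an antizyme of spermatids, reached 4565, 4021 and 4075 TPM against 0.524, 0.702 and 0.330.

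Sperm ion channels and motility kinases were higher in 22 of 22 members (median 11.05). Catsperz, a subunit of the CatSper calcium channel of the tail, was at 784, 753 and 841 TPM in testis and at most 0.276 TPM in liver. Tssk2, a kinase of late spermatids, was at 667, 624 and 651 TPM. The lowest member, Hvcn1, a proton channel that immune cells also carry, averaged 10.2 TPM in testis and 0.719 in liver and was still called higher (2.67).

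Beside the germ cells, 30 of 40 genes of testis somatic cells were higher in testis, 6 lower and 4 not called. Sertoli cell genes were higher in 16 of 21 members, lower in 2 and not called in 3, with a median of 6.62. Cst9, a cystatin of Sertoli cells, was at 225.5, 241 and 262 TPM, Cldn11, the claudin of the blood-testis barrier, at 79.7, 90.8 and 87.9 TPM, and neither had a count in liver. Inha, the inhibin alpha chain, was at 108, 117 and 117.5 TPM against 0.219, 0.231 and 0.127. Clu, which encodes clusterin, was abundant in both tissues and lower in testis (689, 606 and 614 TPM against 900.3, 832 and 928, log2 fold change -1.61 ± 0.15). Sox9, which founds the Sertoli lineage and also marks bile ducts, was not called (-0.10 ± 0.25, adjusted p = 0.721), with a value of 0.97 on log2(TPM + 1).

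Leydig cell genes were higher in 9 of 11 members. Insl3, the hormone of testis descent, was at 314, 309.8 and 250.2 TPM in testis and 1.38, 0.274 and 0.700 in liver. Cyp17a1, which turns pregnane steroids into androgens, was at 152, 137 and 135 TPM against 3.53, 3.78 and 2.19. Hsd3b6 was at 132, 92.8 and 116 TPM against at most 0.0630. Star, which carries cholesterol into mitochondria, spread most, at 53.5, 58.5 and 96.5 TPM, and was 18.7-fold higher. The 2 members lower in testis serve steroid or bile acid synthesis in other organs too: Fdx1, an electron carrier for mitochondrial P450 enzymes, was at 56.2, 62.4 and 55.1 TPM against 295, 350.5 and 274, and Scarb1, the HDL receptor, was at -0.65 with TMM and 0.49 on log2(TPM + 1). Of smooth muscle and peritubular genes 6 of 9 were higher, led by Actg2 at 465, 458 and 426 TPM against at most 0.145, while Tagln (-1.38) and Mylk (-1.30) were lower with TMM. On log2(TPM + 1) these were at -0.20 and -0.15, and the TPM of Tagln overlapped between the tissues, at 16.2, 17.4 and 15.8 against 13.8, 18.0 and 27.5.

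Epididymal markers checked for attached duct tissue were near 0. Of 12 genes, 11 were too low to test, and the testis counts per library were at most 11 for Crisp4, 8 for Crisp1 and 4 for Gpx5. Rnase10 was the exception, with 100, 136 and 116 counts in testis and none in liver.

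**Figure D2:**
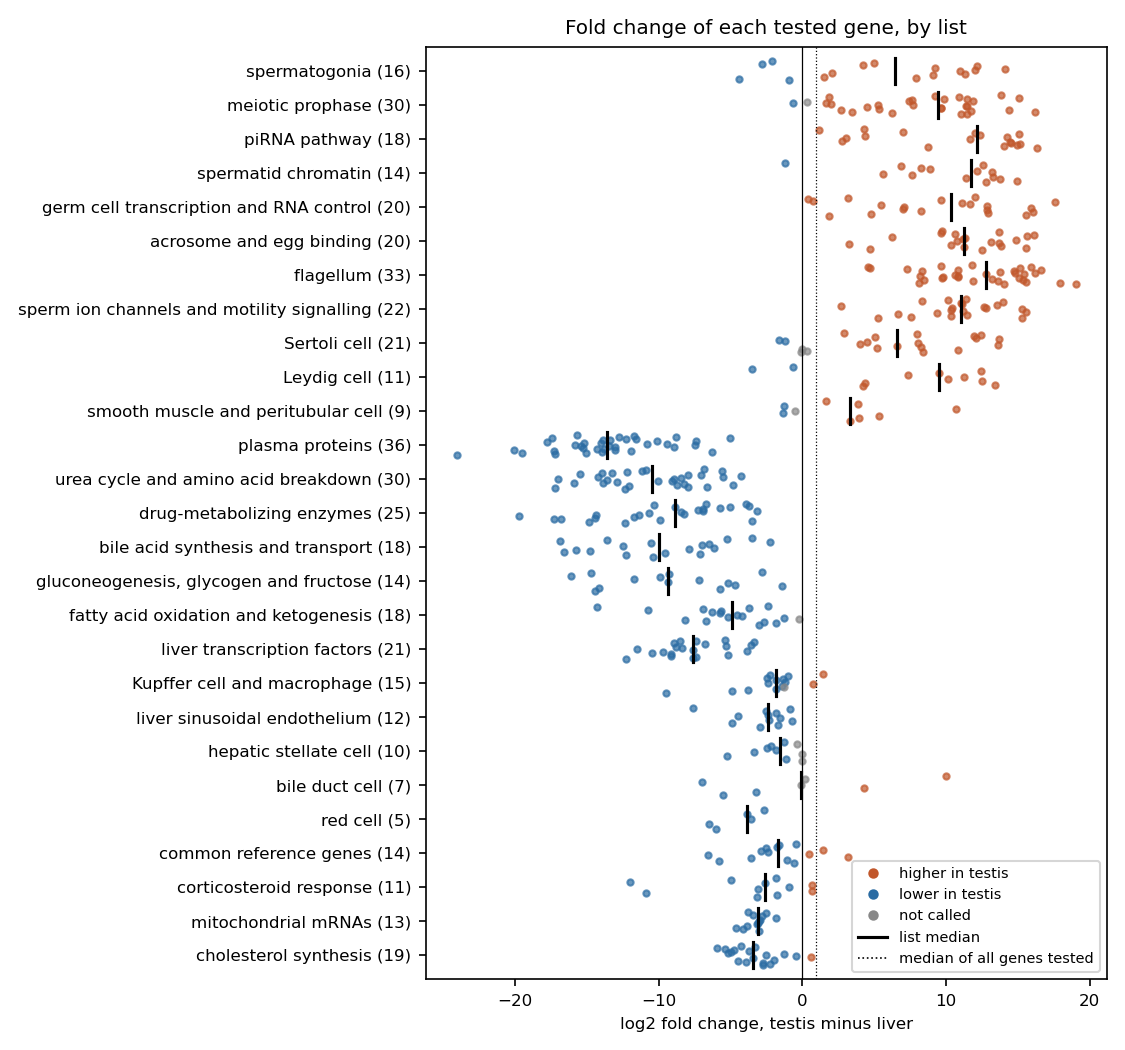
Log2 fold change (testis minus liver) of each tested member of 27 gene lists, 1 point per gene, with the number tested after the list's name. Black bars are list medians and the dotted line is the median of all genes tested, 0.93. Germ cell lists lie to the right with medians of 6.45 to 12.80, hepatocyte lists to the left with medians of -13.63 to -4.87, and the lists of Kupffer, sinusoidal, stellate and bile duct cells have medians of -2.37 to -0.10.

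Hepatocyte genes were lower in testis almost without exception. Across 7 lists of 162 genes, 161 were lower and 1 was not called. They held 23.9 to 26.7% of TPM in the liver libraries and 0.253 to 0.270% in the testis libraries. Hepatocyte genes with under 30 testis counts numbered 64, with 13 at 0, and together gave 194 to 241 counts in a testis library against 4377410 to 4660384 in a liver library.

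All 36 plasma protein genes were lower in testis (median -13.63). Alb, the main protein of plasma, was the most abundant gene of the liver at 43160, 47590 and 59810 TPM and had no count in any testis library, a difference of at least 2599000-fold. Apolipoproteins of circulating lipid particles were also abundant, with Apoa2 at 38710, 30700 and 31300 TPM, Apoe at 31700, 25360 and 29180 and Apoa1 at 17430, 12730 and 14480. Apoe was the one with clear expression in testis, at 92.9, 69.7 and 82.6 TPM, and Apoa2 was at 2.31, 1.505 and 2.71 there. Ttr, which carries thyroid hormone, was at 10820, 8709 and 13870 TPM in liver and at most 0.147 TPM in testis. Fga, a fibrinogen chain, had no testis count and was at 1778, 1942 and 2726 TPM. The 250 bases before the Alb start are shown because this proximal promoter is a classical hepatocyte control region, bound by HNF1 and by CCAAT-binding factors. They lie at chr5:90460620-90460869 (plus strand, RefSeq, GRCm38.p6), with GTTAAT (the left arm of an HNF1 site) and CCAAT, on either strand, in capitals.
Alb: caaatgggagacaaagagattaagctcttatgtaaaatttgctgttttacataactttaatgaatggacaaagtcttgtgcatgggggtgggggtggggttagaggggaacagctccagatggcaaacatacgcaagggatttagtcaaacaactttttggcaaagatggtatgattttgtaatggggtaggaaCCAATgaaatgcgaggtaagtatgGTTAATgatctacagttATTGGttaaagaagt
GTTAAT begins 32 bases before the start, and CCAAT begins 56 bases before it and, on the other strand as ATTGG, 15 bases before it. Of all 32851 windows of this length, 6.43% held GTTAAT and 33.8% held CCAAT, so both are common.

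Major urinary proteins, pheromone carriers made in mouse liver and excreted in urine, took a large and uneven share. The 21 Mup genes summed to 7.89, 13.1 and 8.66% of TPM in liver replicates 1, 2 and 3 and to 11, 2 and 3 counts in the testis libraries. Single members varied more than the sum, as with Mup18 at 1033, 9754 and 4639 TPM and Mup20 at 2900, 7871 and 11330. These genes are near-identical copies whose reads could be split among them, so levels of single members are uncertain.

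Enzymes that dispose of nitrogen and amino acids were lower in testis in 30 of 30 members (median -10.45). Arg1, the arginase that releases urea, was at 2124, 2574 and 2289 TPM in liver and 1.08, 1.09 and 1.37 in testis. Ass1, an earlier enzyme of the urea cycle, kept a level in testis of 16.2, 17.6 and 21.2 TPM against 2456, 1709 and 2183. Gnmt and Mat1a, which use and make the methyl donor S-adenosylmethionine, averaged 3510 and 1670 TPM in liver and 1.62 and 0.221 in testis. Drug-metabolizing enzymes were lower in 25 of 25 members (median -8.89). Cyp2e1, a P450 that oxidizes ethanol, was at 7259, 6383 and 5673 TPM against 0.581, 0.688 and 0.664, and Cyp3a11, a P450 of broad range, was at 1882, 2332 and 2314 TPM with no testis count. The conjugating enzyme Gstm1 differed least, with 611, 540 and 637 TPM in testis against 2495, 1808 and 3077.

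Bile acid genes were lower in 18 of 18 members (median -10.00). Slc27a5 and Baat, which activate bile acids and join them to taurine, were at 658, 751 and 611.5 TPM and at 256, 306 and 344 TPM in liver, and the transporters Slc10a1 and Slco1b2, which take bile acids up from blood, averaged 647 and 338 TPM. In testis these 4 genes stayed under 0.5 TPM in every library. Glucose, glycogen and fructose enzymes were lower in 14 of 14 members (median -9.32). Pck1, of gluconeogenesis, averaged 930.5 TPM in liver and 0.109 in testis. Fbp1, the gluconeogenic fructose bisphosphatase, was the exception in size, with 586, 669.5 and 676 TPM in testis against 759.6, 749.8 and 878, a log2 fold change of -1.44 ± 0.13. Tkfc, which acts on fructose breakdown products, was also well expressed in testis at 172, 183.5 and 177 TPM.

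Fat-burning genes showed the smallest difference of the hepatocyte lists, with 17 of 18 lower and a median of -4.87. Fabp1, the liver fatty acid carrier, was at 11760, 10270 and 10880 TPM against 1.28, 0.974 and 1.32. Liver transcription factors were lower in 21 of 21 members (median -7.64). Hnf4a, the nuclear receptor that maintains the hepatocyte state, was at 179.7, 188 and 232 TPM against 0.110, 0.0372 and 0.101. Cebpa was at 401.5, 387 and 408 TPM against 1.24, 2.22 and 1.10, and Nr1h4, the bile acid receptor, at 132, 126 and 136 against 0.231, 0.468 and 0.351.

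Lists of the other liver cells had medians nearer 0 than those of hepatocytes. Kupffer cell and macrophage genes were lower in testis in 12 of 15 members, higher in 2 and not called in 1 (median -1.81). Clec4f, a lectin particular to Kupffer cells, was at 23.3, 18.9 and 19.1 TPM in liver and at most 0.109 in testis, whereas C1qa, a complement protein of macrophages in general, was at 30.1, 23.2 and 24.2 TPM against 10.5, 10.5 and 11.3. Mrc1, the mannose receptor of tissue macrophages, went the other way, at 15.7, 15.7 and 14.9 TPM in testis against 3.02, 2.17 and 2.73 (1.41 ± 0.16). Adgre1, the F4/80 antigen of macrophages, was the other member called higher (0.77), but not without testis replicate 3 (adjusted p = 0.109) or liver replicate 1 (0.0507), nor with the replicate number as a block (0.087). Lyz2, a lysozyme, was lower with TMM (-1.03) and at 0.07 on log2(TPM + 1). Sinusoidal endothelial genes were lower in 12 of 12 members (median -2.37), with Stab1, a scavenger receptor, at 1.39, 1.75 and 1.72 TPM against 7.04, 4.08 and 6.12. The directions of 2 of the 12, Clec4g and Cdh5, depended on the scaling, at -0.75 and -0.84 with TMM and at 0.42 and 0.25 on log2(TPM + 1). Clec4g lost its call without liver replicate 1 (adjusted p = 0.0691), testis replicate 1 (0.0909) or testis replicate 3 (0.103). Cdh5, the endothelial cadherin, lost its call without the same libraries (0.0722, 0.103 and 0.0743) and with the replicate number as a block (0.0545). The list's summed level was 33.2 to 38.6 TPM in testis and 37.9 to 69.2 in liver. Stellate cell genes were lower in 7 of 10 and not called in 3 (median -1.54). Stellate members at -1.15 and -1.25 with TMM were at -0.01 and -0.07 on log2(TPM + 1). Kupffer members at -1.22 and -1.34 were likewise at -0.07 and -0.18. At least 4-fold lower with TMM were 4 stellate and 6 Kupffer members. Bile duct genes had no common direction: 2 were higher, 3 lower and 2 not called, and the 5 called all differed by at least 4-fold, so the median of -0.10 came from members that went both ways. Epcam, an epithelial adhesion protein, was at 44.6, 45.4 and 35.8 TPM in testis against 0.951, 0.752 and 1.25, and Spp1, osteopontin, was at 0.752, 0.654 and 0.687 against 37.7, 45.9 and 40.5.

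All 5 red cell genes were lower in testis. Hbb-bs, an adult beta globin, was at 15.6, 16.6 and 22.9 TPM in testis and 162, 54.9 and 82.2 in liver, with replicate 1 the highest liver library. Without that library its log2 fold change went from -3.61 to -2.98, that of Hba-a1 from -6.02 to -5.26, that of Hba-a2 from -6.52 to -5.61 and that of Hbb-bt from -3.82 to -3.18. Without testis replicate 3 the value of Hbb-bt went the other way, to -4.55. The globin genes are near-identical pairs whose reads could be split. The amount of blood in each sample was not tested.

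Spermatogenic cells are known for using second copies of housekeeping genes, many of them retrogenes whose parent lies on the X chromosome. For 30 pairs of a testis form and its partner, the testis form was called higher in testis in 30 of 30 pairs. The partner was lower in 20 pairs, higher in 7 and not called in 3. As shares of each pair's summed TPM, the testis form made up most of the pair in testis in 25 pairs and the partner made up most of it in liver in 28. The partner lies on the X chromosome in 11 pairs, and in all 11 the testis form lies on another chromosome. The pairs were chosen for a known testis form, so both these positions and the 30 of 30 called higher were favoured by the choice.

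Phosphoglycerate kinase, a step of glycolysis that yields ATP, is the textbook case. Pgk2 was at 1403, 1359 and 1402 TPM in testis with no count in liver, and Pgk1, its X-linked parent, was at 11.6, 15.1 and 14.6 TPM in testis and 208, 256 and 203 in liver (-5.15). Pgk2 was 99.2, 98.9 and 99.0% of the pair in the testis libraries. The 250 bases before both starts are shown to set the retrogene beside its parent, with each CG dinucleotide in capitals. They lie at chr17:40208610-40208859 (minus strand) for Pgk2 and at chrX:106186850-106187099 (plus strand) for Pgk1, from RefSeq, GRCm38.p6.
Pgk2: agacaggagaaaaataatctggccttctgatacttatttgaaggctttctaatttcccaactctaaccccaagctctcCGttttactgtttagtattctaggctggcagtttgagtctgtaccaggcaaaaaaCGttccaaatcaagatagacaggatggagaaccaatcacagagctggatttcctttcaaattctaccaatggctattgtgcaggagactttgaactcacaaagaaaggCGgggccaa
Pgk1: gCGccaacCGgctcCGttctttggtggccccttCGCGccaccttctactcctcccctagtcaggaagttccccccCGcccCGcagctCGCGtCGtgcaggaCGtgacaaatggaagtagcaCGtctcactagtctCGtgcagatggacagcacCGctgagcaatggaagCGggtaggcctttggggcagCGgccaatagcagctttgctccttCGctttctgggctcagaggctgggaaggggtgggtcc
The Pgk1 stretch holds 17 CG dinucleotides, 0.69 of the number its base composition would give, and the Pgk2 stretch 3, or 0.27. The median over all windows was 6 and 0.37, so Pgk1 lies above it and Pgk2 below.

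Other glycolytic pairs gave 3 patterns. Gapdhs, the sperm glyceraldehyde-phosphate dehydrogenase, was at 1911, 2113 and 2214 TPM in testis against 2.38, 1.34 and 1.08 in liver, while Gapdh was at 1.26, 2.04 and 2.37 against 56.0, 53.1 and 34.3. Gapdh has many processed copies that could take its reads, so its level is uncertain in both tissues. Ldhc, the sperm lactate dehydrogenase, was at 3608, 3908 and 4041 TPM beside an abundant Ldha at 748, 767 and 768, which was not called (-0.15 ± 0.14 with TMM, 0.98 on log2(TPM + 1)). Aldoart1 and Eno4 were higher in testis (11.87 and 7.79) but stayed minor forms there, at 32.4 to 35.1% and 31.8 to 35.2% of the pair with Aldoa and Eno1. The value of Aldoart1 went to 14.85 without liver replicate 1, which held its 2 liver counts. Gk2, a glycerol kinase, was at 771, 845 and 859.8 TPM, with its X-linked parent Gk at 0.606, 0.441 and 0.710.

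In the mitochondrial pairs the testis form was the larger in testis and its partner was lower there. Pdha2, of the pyruvate dehydrogenase complex, was at 183, 196 and 202 TPM in testis and 0 in liver, and X-linked Pdha1 at 2.20, 2.55 and 2.01 against 25.2, 37.1 and 30.8. The cytochrome oxidase subunits Cox6b2, Cox7b2 and Cox8c made up 86.7 to 98.6% of their pairs in testis and under 0.1% in liver, and their partners Cox6b1, Cox7b and Cox8a were lower in testis at -5.56, -7.03 and -5.30. Cyct, the testis cytochrome c, was at 244, 185 and 179.5 TPM beside Cycs at 28.1, 19.4 and 21.0. Slc25a31, an ADP/ATP carrier, held 66.0 to 69.4% of the pair with X-linked Slc25a5.

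The pairs of ribosomal proteins gave the same order. Rpl10l was at 265, 399.9 and 393 TPM in testis and 0 in liver, and Rpl39l at 207, 263 and 289.7 against 0.259, 0 and 0. Their X-linked parents Rpl10 and Rpl39 were lower in testis at -5.85 and -6.60, though both have processed copies that could share their reads. Among RNA and transcription factors the partner was often not lower. Tbpl1, the TBP-like factor of spermatids, was at 217, 235 and 237 TPM, and Tbp itself was higher in testis too, at 39.3, 31.8 and 30.6 against 1.43, 1.63 and 2.06 (3.19 ± 0.16). Pabpc2 and Pabpc1, poly(A)-binding proteins, were both higher, and Pabpc1 remained the larger at 1606, 1523 and 1513 TPM. Cstf2t, a cleavage factor described as the retrogene that replaces X-linked Cstf2 in meiosis, was only slightly higher in testis (0.54), while Cstf2 was higher by more (2.84), and Cstf2t was 48.3 to 54.9% of the pair in testis and 81.6 to 85.8% in liver. The other 2 partners not called were Gtf2a1 (0.26, adjusted p = 0.0833), which passed without testis replicate 1 (0.35, adjusted p = 0.0436), and Ubqln1 (-0.09, and 1.03 on log2(TPM + 1)). G6pdx, the partner of G6pd2, was called higher at 0.51 (adjusted p = 0.0460) but not without testis replicate 2 (0.113), liver replicate 2 (0.111) or liver replicate 3 (0.107), and not with the replicate number as a block (0.1).

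In 13 pairs chosen for a liver form, the liver form was lower in testis in 13 of 13, and the partner was higher in 9 and lower in 4. Of all genes tested 54.0% were higher and 34.5% lower, so the split of the partners alone says little about the pairs. Glucose entry showed the clearest exchange: Slc2a2, the low-affinity transporter, was at 171, 204 and 187 TPM in liver against 0.289, 0.358 and 0.586 in testis, and Slc2a3, the high-affinity transporter, at 0.104, 0.125 and 0.103 against 394, 455 and 454. Hk1, a broadly expressed hexokinase, was at 757, 715 and 709.7 TPM in testis against at most 0.316 in liver (10.16 ± 0.22). Pyruvate kinase was Pklr in liver (158, 162 and 151 TPM) and Pkm in testis (372, 346 and 348 TPM). Glucose-6-phosphatase was G6pc in liver (665, 390.0 and 526 TPM) and the broadly expressed G6pc3 in testis (153, 169 and 169 TPM). The 4 partners lower in testis along with the liver form included Fbp2, Gys1 and Mat2a. Fbp2 was below 1.3 TPM in every library and lost its call without testis replicate 2 (adjusted p = 0.0664), liver replicate 2 (0.0528) or liver replicate 3 (0.0802). Its fitted value of -2.02 went to -1.42 without testis replicate 1 and to -2.86 without testis replicate 3. Mat2a was at -0.74 with TMM and 0.42 on log2(TPM + 1). Arg2, the mitochondrial arginase, was called higher (1.53) but not with the replicate number as a block (adjusted p = 0.0572).

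**Figure D3:**
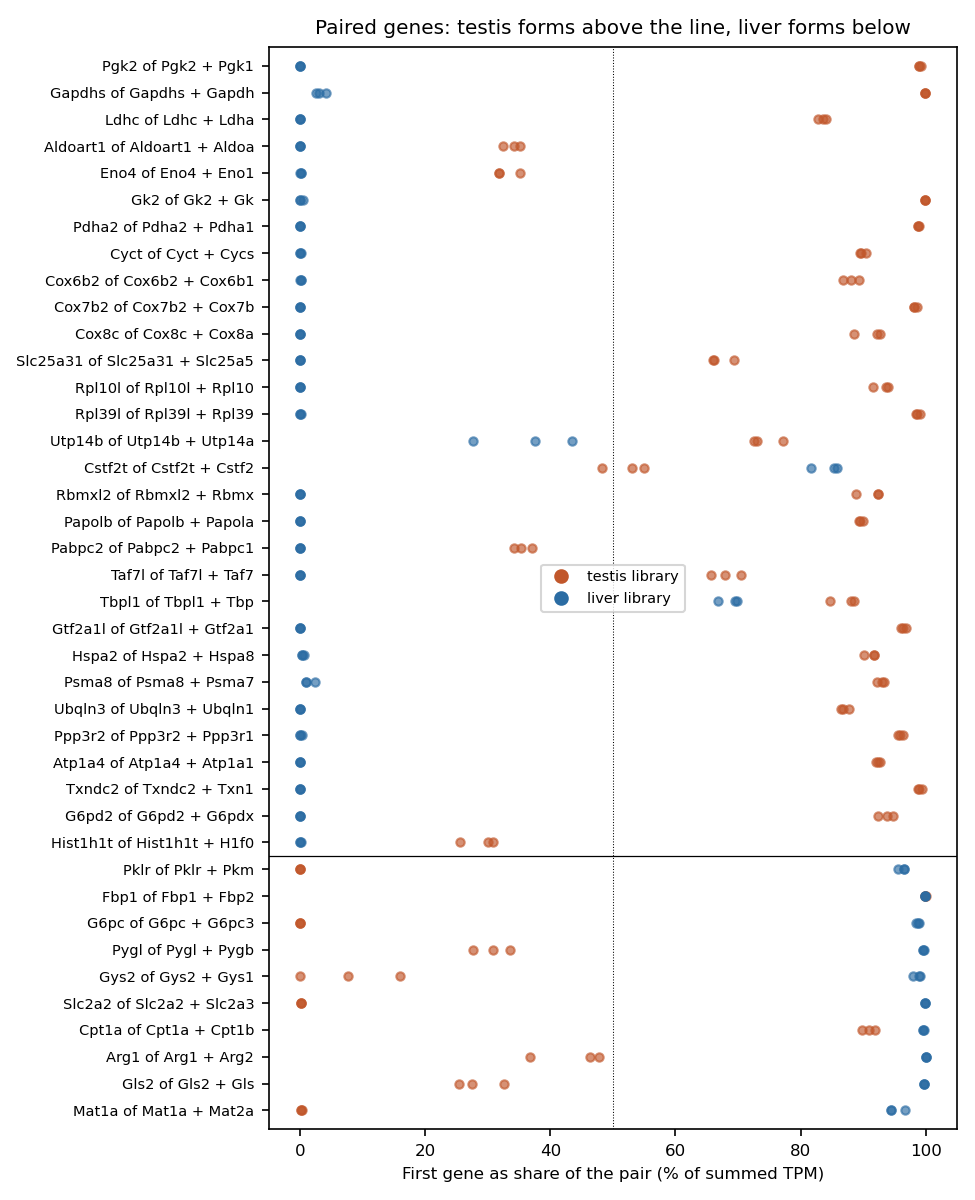
Share of each pair's summed TPM (%) held by the first-named gene, 1 point per library, for 30 testis forms (above the line) and 10 of the 13 liver forms (below). Testis libraries lie right of 50% in most upper rows and liver libraries near 0, with Cstf2t and Tbpl1 as pairs in which the first gene is also the larger in liver.

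Coding genes of the X chromosome had the highest median among X and the autosomes. The median log2 fold change of 670 X-linked genes was 1.74, and the 19 autosome medians ran from 0.08 to 1.56. On the X, 48.8% of genes were at least 4-fold higher in testis and 20.7% at least 4-fold lower, beside 29.4 to 46.7% and 16.1 to 25.9% on single autosomes. Chromosome 14 came closest, at 1.56. The Y chromosome had 28 of 33 tested genes higher in testis. Many X, Y and chromosome 14 genes belong to families of near-identical copies, whose reads could be split.

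The X chromosome divided by how active its genes were in liver, a split chosen after seeing the data. Of 110 X genes at 10 TPM or more in liver, 102 (92.7%) were lower in testis and 3 higher, with a median of -3.46, while 73.9% of 4834 autosomal genes at that level were lower, with autosome medians of -2.27 to -1.28. At 1 to 10 TPM in liver the X median was -1.14, below autosome medians of -0.18 to 0.57. Under 1 TPM in liver, 396 X genes had a median of 7.66, within the autosomal range of 4.84 to 7.82. A split on the liver level leans every chromosome the same way, so only the X and the autosomes of 1 level can be compared. Taking genes by their mean TPM over both tissues, at 10 or more, the X median was 1.93 and the autosome medians -0.11 to 0.95.

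**Figure D4:**
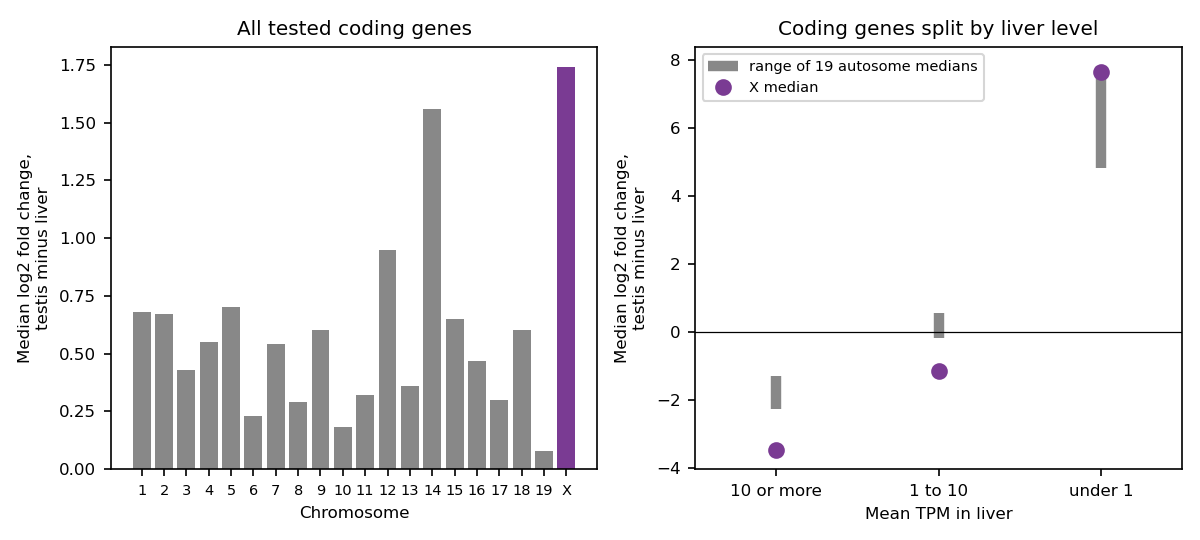
Left, median log2 fold change (testis minus liver) of tested coding genes on each autosome and the X. Right, the same median for X genes (points) and the range of the 19 autosome medians (bars), with genes split by mean TPM in liver. The X median is the highest on the left at 1.74, and lies below the autosomal range for genes at 1 TPM or more in liver on the right.

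Genes often used to normalize measurements differed between the tissues. Of 14 common reference genes, 3 were higher in testis and 11 lower with TMM scaling. B2m, the light chain of MHC class I, was at 80.7, 68.5 and 75.3 TPM in testis and 3034, 3144 and 3706 in liver (-6.59 ± 0.18). Tbp differed by 3.19 in the other direction, and Polr2a, the large subunit of RNA polymerase II, by 1.46 ± 0.15. Ywhaz was closest among the 3 higher ones, at 131, 128 and 129 TPM against 37.3, 43.1 and 51.7 (0.43 ± 0.12). Actb (515, 596 and 567 TPM against 390.3, 288 and 456), Eef2 and Ppia changed direction with the scaling. With TMM they were at -0.57, -0.47 and -1.10, and on log2(TPM + 1) at 0.59, 0.68 and 0.04. Actb lost its call without testis replicate 1 (adjusted p = 0.0663) or testis replicate 3 (0.0592). Eef2 lost it without testis replicate 1 (0.108), 2 (0.0773) or 3 (0.0885), without liver replicate 1 (0.0510), and with the replicate number as a block (0.0661).

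**Figure D5:**
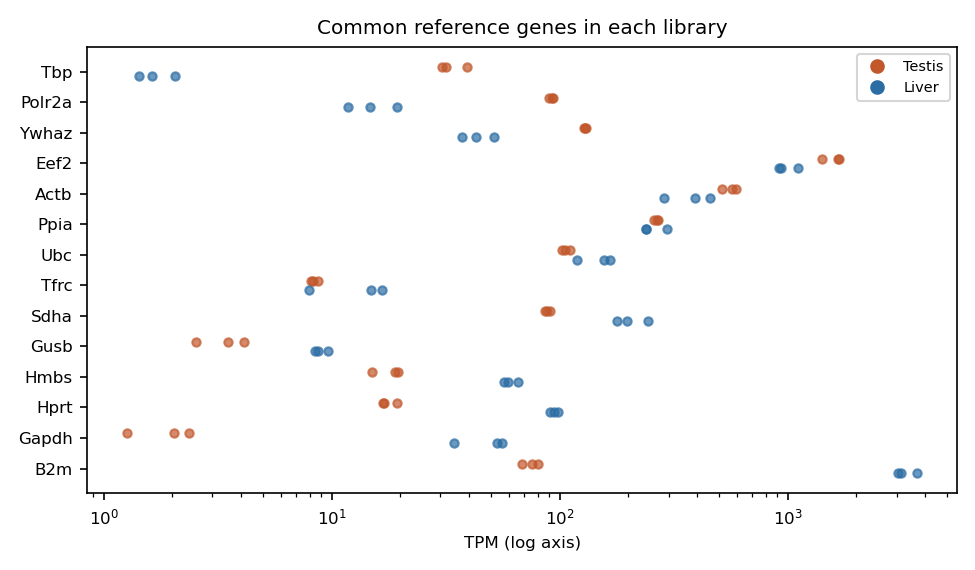
TPM (log axis) of 14 common reference genes in each of the 3 testis and 3 liver libraries, ordered by log2 fold change with TMM. B2m differs most, near 75 TPM in testis and above 3000 in liver, and Ppia overlaps between the tissues.

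Genes of corticosteroid handling, the hormone axis that the wider study disturbs, were lower in testis in 9 of 11 tested members at baseline (median -2.61). Among the 9 was Zbtb16, whose direction depended on the scaling, at -0.94 with TMM and 0.11 on log2(TPM + 1). Serpina6, the corticosteroid-binding globulin secreted by liver, was at 372, 195.5 and 311 TPM in liver and at most 0.306 in testis, and Hsd11b1, which regenerates active corticosteroid, at 256, 300.4 and 320.1 TPM against at most 0.419. Nr3c1, the glucocorticoid receptor, averaged 4.04 TPM in testis and 16.1 in liver (-3.13), and Tsc22d3, a receptor target, was at 4.69, 6.58 and 6.59 against 28.3, 16.8 and 23.2. The 2 higher members were Per1 (0.68 ± 0.21) and Fkbp5 (0.65 ± 0.15), with Fkbp5, a chaperone of the receptor, at 15.7, 14.2 and 14.8 TPM in testis against 3.802, 3.69 and 5.63. No stressed animal was examined here.

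All 13 mitochondrial messages were lower in testis (median -3.10). mt-Co1, a core subunit of cytochrome oxidase, was at 12110, 8602 and 9357 TPM against 36540, 34900 and 34350. Nuclear copies of mitochondrial sequence could share reads with some of these genes. Cholesterol synthesis was lower in 18 of 19 members (median -3.42), of which Sqle, squalene epoxidase, was at -0.42 with TMM and 0.71 on log2(TPM + 1). Sqle lost its call without testis replicate 1 (adjusted p = 0.0609) or 2 (0.0817). Sc5d, a late step, was at 17.0, 12.6 and 16.4 TPM against 479, 414 and 407. Fdft1, squalene synthase, was the member higher in testis, at 394, 360.1 and 382 TPM against 134.5, 107.5 and 90.7 (0.62 ± 0.19).

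The genes with the largest fitted change among abundant coding genes, taken by rule, mostly belonged to the processes above. Upwards they were Akap4, Spz1, Odf1, Tuba3a, Clgn, Dnaaf1, Tuba3b, Papolb, Pmfbp1 and Cfap206, each with no count in liver and at least 18240-fold higher. Spz1, a bHLH factor of spermatids, was at 3075, 2317 and 2437 TPM. Clgn, the calmegin chaperone that folds sperm surface proteins, was at 730, 595 and 609.5, and Dnaaf1, which assembles dynein arms, at 1015, 872 and 868. Tuba3a and Tuba3b are near-identical tubulins and their split is uncertain. Downwards they were Alb, Fga, Cyp3a11, Apoc3 and 6 Mup genes, each with no count in testis and at least 110300-fold lower there. Phf7, a histone reader of spermatids, was among the 10 most abundant genes of the testis once predicted, pseudogene and small RNA genes were passed over, at 3015, 3071 and 3136 TPM against 6.44, 8.39 and 5.90.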

How the data were processed

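RNA-seq of 3 control testis and 3 control liver libraries was compared. The deposited table gives raw counts per gene, and TPM and FPKM that the authors made from them (FPKM was not analysed, 2 columns of another group were not mapped, and TPM equals FPKM rescaled in each library). Reads were placed on mm39, per the submitters' processing notes. Not given in the sources used here: aligner, counter, annotation and strand setting. Total counts were 27.85 to 35.1 megacounts. Lower bounds from counts leave out the spread between replicates, while standard errors come from the fit and include it. Symbols, gene classes and chromosomes came from GENCODE M21 by gene ID (34362 of 34932 named), and promoters from RefSeq, GRCm38.p6, as the 250 bases before a start. A comparison of promoter letters over gene lists was void, since 79.0% of coding genes had a window and 80% were needed.

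The main test was edgeR 4.0.16 in R 4.3.3 (default low-count filter, TMM, glmQLFTest, Benjamini-Hochberg over all genes tested) without a block; the labels state no pairing. Alternatives were DESeq2 1.42.0, limma 3.58.1 (voom, or log2(TPM + 1) and log2(TPM + 0.1) for genes at 1 TPM in 3 libraries), other scalings and filters, all 9 control libraries, the replicate number as a block, and each library left out. Replicates are taken as separate animals from the design text. The p-values set the difference between the tissues against the spread between these samples. Counts were also simulated with 1 baseline profile for both tissues and 200 of 20079 genes changed, up or down. The test recovered 49.5% of these at 2-fold and 95.0% at 4-fold, with 8 of 107 and 13 of 203 calls false. It called 0 genes when none changed. In the real comparison 88.5% of genes were called, so these rates do not carry over to it.

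Members of the 28 gene lists and 43 gene pairs (493 of 495 listed genes matched) and the tests were chosen with earlier results of these data known. Named genes were all pair members, the 5 most abundant members of each list and members called against its direction, the 10 largest changes each way among called coding genes at 10 TPM without overlap, and the 10 most abundant genes per tissue, passing over predicted, pseudogene and small RNA genes, of which not all are printed. Crem, Hvcn1, Nr3c1, Clec4g, Cdh5, Lyz2, Sqle, Gm23935, the untested list members and the epididymal genes were named after their values were seen. Some members count in their lists but are not reported here by name.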

Additional observations from a re-analysis of the deposited data

How the results depend on the processing

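With limma on log2(TPM + 1) and log2(TPM + 0.1), 4343 and 4292 genes were lower in testis in place of 6927, and 1939 and 2404 at least 4-fold lower in place of 3989. These fits changed the test and the filter along with the scaling; library size alone gave 5327 and 2965. Genes higher in testis numbered 12760 with no filter on low counts, 12555 with DESeq2 and 12483 with library size, in place of 10844. Directions turned for 14 of the 164 genes named, counting genes called before or after the change. With library size alone, log2(TPM + 1) and log2(TPM + 0.1) the log2 fold changes were 0.18, 0.59 and 0.59 for Actb, 0.29, 0.68 and 0.68 for Eef2, 0.60, 0.98 and 0.99 for Ldha, 0.00, 0.42 and 0.43 for Mat2a, 0.13, 0.41 and 0.52 for Prdm9, 0.11, 0.49 and 0.50 for Scarb1, 0.66, 1.03 and 1.05 for Ubqln1, 0.01, 0.42 and 0.45 for Clec4g, and 0.33, 0.71 and 0.72 for Sqle. On the 2 TPM scales, Ppia was at 0.04 and 0.04, Zbtb16 at 0.11 and 0.20, Cdh5 at 0.25 and 0.34, Lyz2 at 0.07 and 0.08, and Sox9 at 0.97 and 1.10. Sox9, not called with TMM, was also above 0 and not called with DESeq2 size factors (0.04), DESeq2 (0.07) and library size (0.63). The bile duct median, which with TMM is the value of Sox9 (-0.10), went to 0.04 with DESeq2 size factors, 0.63 with library size, 0.07 with DESeq2, 1.10 and 1.2 on the TPM scales, and -0.31 to 0.17 without 1 library.

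The replicate number as a block gave 10535 genes higher and 6640 lower. Testis and liver libraries of the same number did not deviate together (correlations over 20079 genes of -0.002, -0.001 and 0.011). This cannot decide whether they came from 1 animal, since unlike tissues of 1 animal need not deviate together. With the block, 159 of 164 genes kept their call, and Eef2, Arg2, G6pdx, Adgre1 and Cdh5 did not. Leaving out 1 library gave 10764 to 11469 genes higher and 6776 to 7022 lower, 8391 to 8817 at least 4-fold higher and 4050 to 4159 at least 4-fold lower. The 4-fold counts lay above those of the full comparison, 8186 and 3989, with 20575 to 21008 genes tested in place of 20079; the cause was not tested. All 43 tissue forms kept their call without each library. Of 242 genes taken by the naming rule, 45 moved by over 1.5 times without 1 library, and 41 of these had under 30 counts in the lower tissue, which is where depth limits the folds. The median of the X chromosome lay above the highest autosome median by 0.18 with TMM and with each of the 3 other scalings of counts. A scaling of counts moves most genes by about the same amount, so it cannot test the order of the chromosomes.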
